A study of Mus musculus with 54 samples.

Results

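Small-intestinal group 2 innate lymphoid cells (ILC2s) cultured for 48 h with IL-2, IL-7 and IL-25 were compared with ILC2s cultured for 4 h with the same 3 cytokines. The 8 libraries, 4 at 48 h and 4 at 4 h, were taken by their labelled treatment and time from the 54 samples of the series, without use of any measured value, and all 10799 genes listed for the culture experiment entered. RNA was measured with Smart-seq2, a method that reads whole transcripts from few cells. Cells of both groups were wild type and came from the small intestine of C57BL/6 mice aged 8 to 12 weeks, males and females pooled. Cells given IL-2 and IL-7 alone for 48 h or 4 h, 4 libraries each and otherwise alike, show what the same time did without IL-25. The 72 h libraries of both cultures are quoted only as levels. The sample titles and the table's column names give 48 h, which is used here, whereas the name of the deposited table gives 28 h for the middle time, and no source used here settles it. The 4 h group is not a resting state, because these cells had already spent 4 h with IL-25. The series concerns the nuclear receptor RXR gamma in the reactivity of intestinal ILC2s. Its protocol speaks of mice at steady state or given IL-25 or PBS for 2 days, and the labels of the cultures do not say which of these gave the cells. Nor do they say that the libraries of a group came from separate animals or cultures, so p-values measure only the spread between these libraries, which may be technical.

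ILC2s are tissue-resident lymphocytes without antigen receptors that release type 2 cytokines when epithelial signals reach them. In the intestine the main such signal is IL-25 from tuft cells, which binds a receptor of the IL-17RB and IL-17RA chains and acts through adaptor proteins on NF-kB and MAP kinases. IL-2 and IL-7 act through the common gamma chain, JAK1, JAK3 and STAT5 and sustain survival and growth. In stimulated lymphocytes, immediate early and NF-kB target transcripts belong to the first hours, and DNA replication and division come later.

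All 13 ILC2 marker genes examined were listed, with a summed level of 4688 to 5353 TPM at 48 h and 5250 to 5439 TPM at 4 h. Several defining transcripts of other cells were not among the listed genes: Trac, Cd4 and Cd8a of T cells, Ms4a1 of B cells, Lyz2 and Csf1r of macrophages, Cpa3 and Mcpt1 of mast cells, and Vil1 of epithelium. Of the lists for other cells, 8 of 16 genes were listed for T cells, 1 of 9 for B cells, 2 of 11 for macrophages and dendritic cells, 1 of 11 for mast cells, 2 of 13 for epithelium, 2 of 9 for erythroid cells and 1 of 9 for fibroblasts and endothelium. Cd79b of the B cell receptor complex had 71.3 to 91.5 TPM at 48 h and 12.3 to 19.5 TPM at 4 h, Kit had 5.31 to 6.73 TPM at 48 h and 113 to 171 TPM at 4 h, and the endothelial marker Pecam1 had 22.8 to 32.4 TPM at 48 h and 146 to 161 TPM at 4 h. The listed T cell genes, which included Cd3e (0.77 to 1.67 TPM at 48 h and 0.82 to 2.61 TPM at 4 h) and Cd3g (22.3 to 27.7 and 13.3 to 24.4 TPM), summed to 235.6 to 256.4 TPM at 48 h and 269.6 to 302.0 TPM at 4 h. The sum hides members that rose: by the test below, Themis, Cd247 and Lat were called higher at 48 h, Lcp2 lower and 4 neither. The median change of these 8 genes was 0.24 on the log2(TPM + 1) scale. After median of ratios scaling 5 were higher and 1 lower. The listed epithelial genes were Epcam and Krt18, with a sum of 35.1 to 40.5 TPM at 48 h and 87.7 to 99.8 TPM at 4 h, and Krt18 had 4.20 to 9.58 TPM at 48 h and 0 to 0.39 TPM at 4 h. The part of these transcripts in the results was not tested. The listed genes summed to 884940 to 892555 TPM per library at 48 h and 895130 to 898025 TPM at 4 h, and 9595 to 9713 genes at 48 h and 9532 to 9669 at 4 h reached 1 TPM. TPM keep no read total, so the depth is unknown and no counting interval could be given. Over all 24 culture libraries, the first principal component (57.4% of the variance) separated 4 h from the later times and the second (21.7%) separated libraries with IL-25 from those without.

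Most measured transcripts differed between 48 h and 4 h with IL-25. Of 10548 genes tested, 2915 (27.6%) were higher and 4699 (44.5%) were lower at 48 h, by limma on log2(TPM + 1) with an adjusted p under 0.05, and 1340 and 2134 of them differed by at least 2-fold on that scale. The median change of all genes was -0.24 on the log2(TPM + 1) scale, and list medians are given beside it. When TPM were rescaled by the median of ratios the split was 3811 higher and 3677 lower, and under quantile normalization 3375 and 4137. Groups did not overlap, all 4 libraries at 48 h above or all below the 4 at 4 h, for 24.5% of genes in the higher direction and 40.3% in the lower. Gene groups are therefore read against these shares: a list with 27.6% of its members higher and 44.5% lower looks like the whole table. In bulk RNA, fewer cells of a kind and less RNA per cell cannot be told apart. All fold changes from the fit are on the log2(TPM + 1) scale and understate the change of low genes; folds of TPM are ratios of the 2 group means.

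Genes of cell division rose throughout. All 49 mitosis and cytokinesis genes tested were higher at 48 h, with a median change of 4.29 on the log2(TPM + 1) scale, and all 40 genes of DNA replication and S phase were higher, with a median of 2.43. Cdk1, the kinase that drives entry into mitosis, had 356, 310, 355 and 320 TPM at 48 h, against 1.85, 4.10, 0 and 0.56 TPM at 4 h, a change of 7.26 ± 0.33 (SE; adjusted p = 6.58e-16). Ube2c, the ubiquitin-conjugating enzyme that works with the anaphase-promoting complex, had 470, 444, 535 and 499 TPM at 48 h and 1.3, 0.98, 0.81 and 0.35 TPM at 4 h, 566-fold apart and the largest rise of any gene under the naming rule (8.06 ± 0.25, adjusted p = 5.85e-19). Ccnb2, a B-type cyclin that partners Cdk1, had 141, 133, 150 and 153 TPM at 48 h and 1.08, 0.37, 0.23 and 0.40 TPM at 4 h. In each of these genes every 48 h library lay more than an order of magnitude above every 4 h library. Birc5 (survivin), Ccna2 and Ccnb1 averaged 417 ± 13.2, 184 ± 12.5 and 185 ± 24.8 TPM at 48 h, and 1.93 ± 1.36, 0.565 ± 0.158 and 0.770 ± 0.954 TPM at 4 h (SD, n = 4 each). Mki67, the gene of the proliferation antigen Ki-67, was lower in level, with 15.5 to 19.1 TPM at 48 h and 0 to 0.10 TPM at 4 h. The least changed of the mitosis genes, Bub3 of the spindle checkpoint, still differed without overlap, with 150 to 171 TPM at 48 h and 120 to 126 TPM at 4 h.

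Promoters of 3 of these mitotic genes are shown because late cell cycle genes are known to share a pair of short elements, the cell cycle homology region (CHR, TTTGAA) and the CCAAT box bound by NF-Y. The windows run from 250 bases before to 50 after the start site (RefSeq, GRCm38.p6), 5′ to 3′ in the direction of transcription, with TTTGAA and CCAAT on either strand in capitals.
Cdk1 (chr10:69352863-69353162, minus strand): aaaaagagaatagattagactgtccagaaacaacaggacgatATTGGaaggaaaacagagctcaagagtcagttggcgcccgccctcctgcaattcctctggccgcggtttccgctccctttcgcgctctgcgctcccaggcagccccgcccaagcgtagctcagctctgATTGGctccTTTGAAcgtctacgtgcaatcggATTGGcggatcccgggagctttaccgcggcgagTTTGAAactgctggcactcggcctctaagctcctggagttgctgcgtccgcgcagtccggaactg
Ccnb2 (chr9:70421505-70421804, minus strand): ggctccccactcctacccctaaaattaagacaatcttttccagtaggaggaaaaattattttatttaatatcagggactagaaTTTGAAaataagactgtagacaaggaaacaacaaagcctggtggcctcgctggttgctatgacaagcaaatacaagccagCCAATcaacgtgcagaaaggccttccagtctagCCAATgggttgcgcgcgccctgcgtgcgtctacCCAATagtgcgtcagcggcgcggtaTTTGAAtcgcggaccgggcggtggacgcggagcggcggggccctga
Ube2c (chr2:164769679-164769978, plus strand): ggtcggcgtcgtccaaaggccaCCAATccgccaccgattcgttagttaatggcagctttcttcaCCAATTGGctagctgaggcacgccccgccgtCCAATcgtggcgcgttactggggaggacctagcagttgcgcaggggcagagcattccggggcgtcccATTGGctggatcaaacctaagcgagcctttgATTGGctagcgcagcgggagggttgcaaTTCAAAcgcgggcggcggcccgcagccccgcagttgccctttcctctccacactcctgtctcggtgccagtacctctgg
Cdk1 and Ccnb2 held 2 TTTGAA and 3 CCAAT each, and Ube2c held 1 TTTGAA and 6 CCAAT, of which a pair on opposite strands overlap. Of the 49 mitosis genes, 41 had a window in the RefSeq table, and TTTGAA was in 32 of them (78%) and CCAAT in 31 (75.6%). Over all 8486 tested genes with a window the shares were 14.5% and 43.6%, and over all 32817 windows they were 17.9% and 37.4%. A gene with several windows was counted where any of them held the letters. These are matches of letters only and do not show binding.

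Replication genes rose without exception as well. Rrm2, the regulatory subunit of ribonucleotide reductase, had 515, 457, 485 and 451 TPM at 48 h and 3.13, 3.24, 1.66 and 3.77 TPM at 4 h (162-fold). Cdc6, which loads the MCM helicase at origins, had 63.3, 56.0, 55.0 and 51.3 TPM at 48 h and 1.01, 0.22, 0.25 and 0.11 TPM at 4 h (5.40 ± 0.20, adjusted p = 8.61e-18). The least changed was Pola1, the catalytic subunit of DNA polymerase alpha, with 6.16 to 8.04 TPM at 48 h and 3.76 to 4.17 TPM at 4 h. E2F-type letters (TTTCCCGC or TTTGGCGC, either strand), which are known from S phase promoters, stood in 11 of the 32 replication genes with a window (34.4%), against 3.71% of tested genes with a window. TTTGAA was in 4 of those 32 (12.5%), close to the 14.5% of all tested genes, and CCAAT in 19 (59.4%), against 43.6%. Cdc6 carries 1 such match, in capitals in its window:
Cdc6 (chr11:98907901-98908200, plus strand): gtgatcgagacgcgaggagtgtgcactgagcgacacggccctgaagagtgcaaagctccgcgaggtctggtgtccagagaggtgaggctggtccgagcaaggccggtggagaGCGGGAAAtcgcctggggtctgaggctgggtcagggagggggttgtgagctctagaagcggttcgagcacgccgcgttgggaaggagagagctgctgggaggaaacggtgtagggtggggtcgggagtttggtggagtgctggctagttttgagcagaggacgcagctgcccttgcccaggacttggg

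The regulators around this machinery were less uniform. Of 29 cyclins, CDK inhibitors and E2F genes 15 were higher and 8 lower at 48 h, and 16 and 4 after median of ratios scaling. Ccne1, the cyclin of S phase entry, averaged 59.7 ± 4.74 TPM at 48 h and 2.04 ± 0.789 TPM at 4 h, and the phosphatase gene Cdc25b 29.4 ± 3.78 and 0.460 ± 0.308 TPM (SD, n = 4 each). Ccnd2, the D cyclin with the highest level, did not pass the test (368 ± 76.8 TPM at 48 h and 521 ± 271 TPM at 4 h, adjusted p = 0.0865), and 1 of its 4 h libraries stood at 926 TPM. Without the first or the second 4 h library, Ccnd2 was called lower (adjusted p = 0.0361 and 0.0460), as it was after quantile normalization (adjusted p = 0.0355). Trp53 fell to 155 to 183 TPM at 48 h, against 311 to 325 TPM at 4 h. Of 6 clustered histone genes 4 were higher, and Hist1h2ap had 2450 to 3662 TPM at 48 h and 10.03 to 34 TPM at 4 h. These near-identical genes share reads, so the single value is uncertain.

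**Figure D1:**
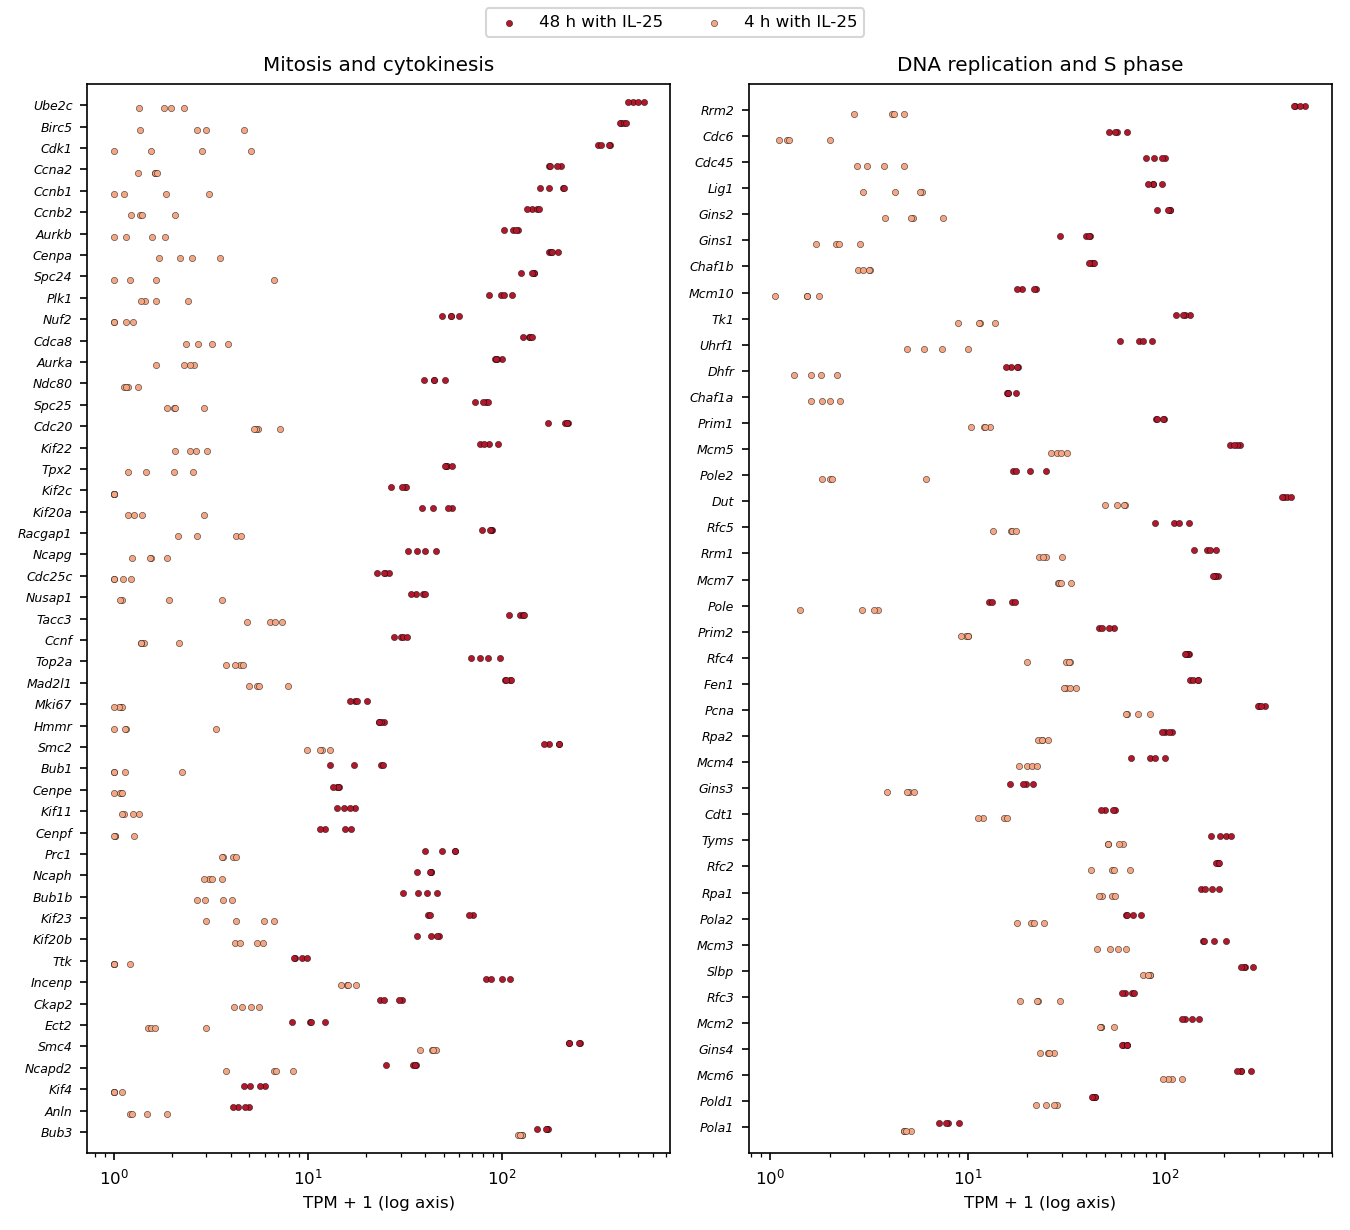
Levels (TPM + 1, log axis) of the 49 mitosis genes and the 40 replication genes in each of the 4 libraries at 48 h with IL-25 (dark) and the 4 at 4 h with IL-25 (light), 1 gene per row, ordered by change. Every gene was called higher at 48 h, from Ube2c at 8.06 to Bub3 at 0.40 on the log2(TPM + 1) scale in the left panel.

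The cytokine genes of ILC2s did not move together. Of 20 effector cytokine genes tested, 4 were higher and 13 lower at 48 h, with a median change of -1.87, against -0.24 for all genes. Il9, a growth and survival cytokine for ILC2s and mast cells, had the largest fall of the genes named by rule, with 55.6, 26.7, 11.3 and 40.4 TPM at 48 h, against 17016, 17965, 13636 and 16492 TPM at 4 h (486-fold lower; -9.08 ± 0.48, adjusted p = 1.43e-14). At 4 h Il9 alone held 1.52% to 2.01% of all listed TPM, and at 48 h 0.00126% to 0.00629%. Il22, a cytokine that acts on epithelium and is better known from ILC3s, had 0.27, 0.26, 0 and 4.89 TPM at 48 h and 364, 460, 516 and 232 TPM at 4 h (-7.75 ± 0.57, adjusted p = 8.08e-12). Of 9 ILC3 markers 6 were listed, and they summed to 1.18 to 6.34 TPM at 48 h and 285 to 559 TPM at 4 h, most of it Il22. Csf2, the GM-CSF gene, was listed at 0 in all 4 libraries at 48 h and had 5.50, 5.50, 8.98 and 10.9 TPM at 4 h. The groups of these 3 genes did not overlap.

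The type 2 cytokine genes themselves changed less. Il5, the eosinophil growth factor, had 2333, 1949, 2026 and 2095 TPM at 48 h and 2222, 2214, 1789 and 1911 TPM at 4 h, and did not pass the test (0.05 ± 0.14, adjusted p = 0.766). Il13, which drives goblet cell and smooth muscle responses, was modestly higher, with 199, 208, 202 and 191 TPM at 48 h and 153, 155, 142 and 150 TPM at 4 h (1.33-fold, adjusted p = 0.00145). Il4 was lower, with 65.0, 63.3, 66.7 and 64.2 TPM at 48 h and 87.5, 93.1, 124 and 102 TPM at 4 h (-0.63 ± 0.12, adjusted p = 3.81e-05). Of these 3 linked genes, then, Il13 was called higher, Il4 was called lower, and Il5 was not called.

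A second set of secreted factors appeared late. Il10, an anti-inflammatory cytokine, had 224, 151, 198 and 207 TPM at 48 h and 0.22, 0, 0.28 and 0.48 TPM at 4 h (7.30 ± 0.16, adjusted p = 5.86e-22). Areg, which encodes the epithelial repair factor amphiregulin, had 158, 139, 138 and 150 TPM at 48 h and 15.9, 16.8, 25.5 and 9.41 TPM at 4 h (8.69-fold). Nmb, the gene of the neuropeptide neuromedin B, averaged 220 ± 14.2 TPM at 48 h and 3.42 ± 1.23 TPM at 4 h, and Tg, the thyroglobulin gene, whose role in ILC2s is not given by any source used here, 288 ± 21.1 and 0.762 ± 0.238 TPM (SD, n = 4 each). For all 4, every 48 h library lay above every 4 h library. Arg1, an enzyme of arginine use in ILC2s, averaged 97.3 ± 4.57 TPM at 48 h and 54.8 ± 8.49 TPM at 4 h.

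Early factors other than Il9 and Il22 were nearly gone at 48 h. Calca, the gene of the neuropeptide CGRP, had 13.9, 9.36, 9.64 and 8.00 TPM at 48 h and 2353, 2344, 2311 and 2145 TPM at 4 h (224-fold lower, adjusted p = 4.19e-21). The chemokine gene Ccl1 was listed at 0 in all 4 libraries at 48 h and had 26.2 to 45.7 TPM at 4 h. It was the only gene at 0 in every 48 h library with a mean of at least 10 TPM at 4 h, while 14 genes showed the reverse. Cxcl2 and Cxcl3, chemokines that attract neutrophils, had 0 to 0.78 and 2.02 to 5.98 TPM at 48 h, and 17.1 to 92.9 and 134 to 147 TPM at 4 h. Il6 had 2.05 to 3.91 TPM at 48 h and 82.8 to 106 TPM at 4 h, and Tnf 1.16 to 2.38 TPM at 48 h and 38.7 to 52.9 TPM at 4 h.

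**Figure D2:**
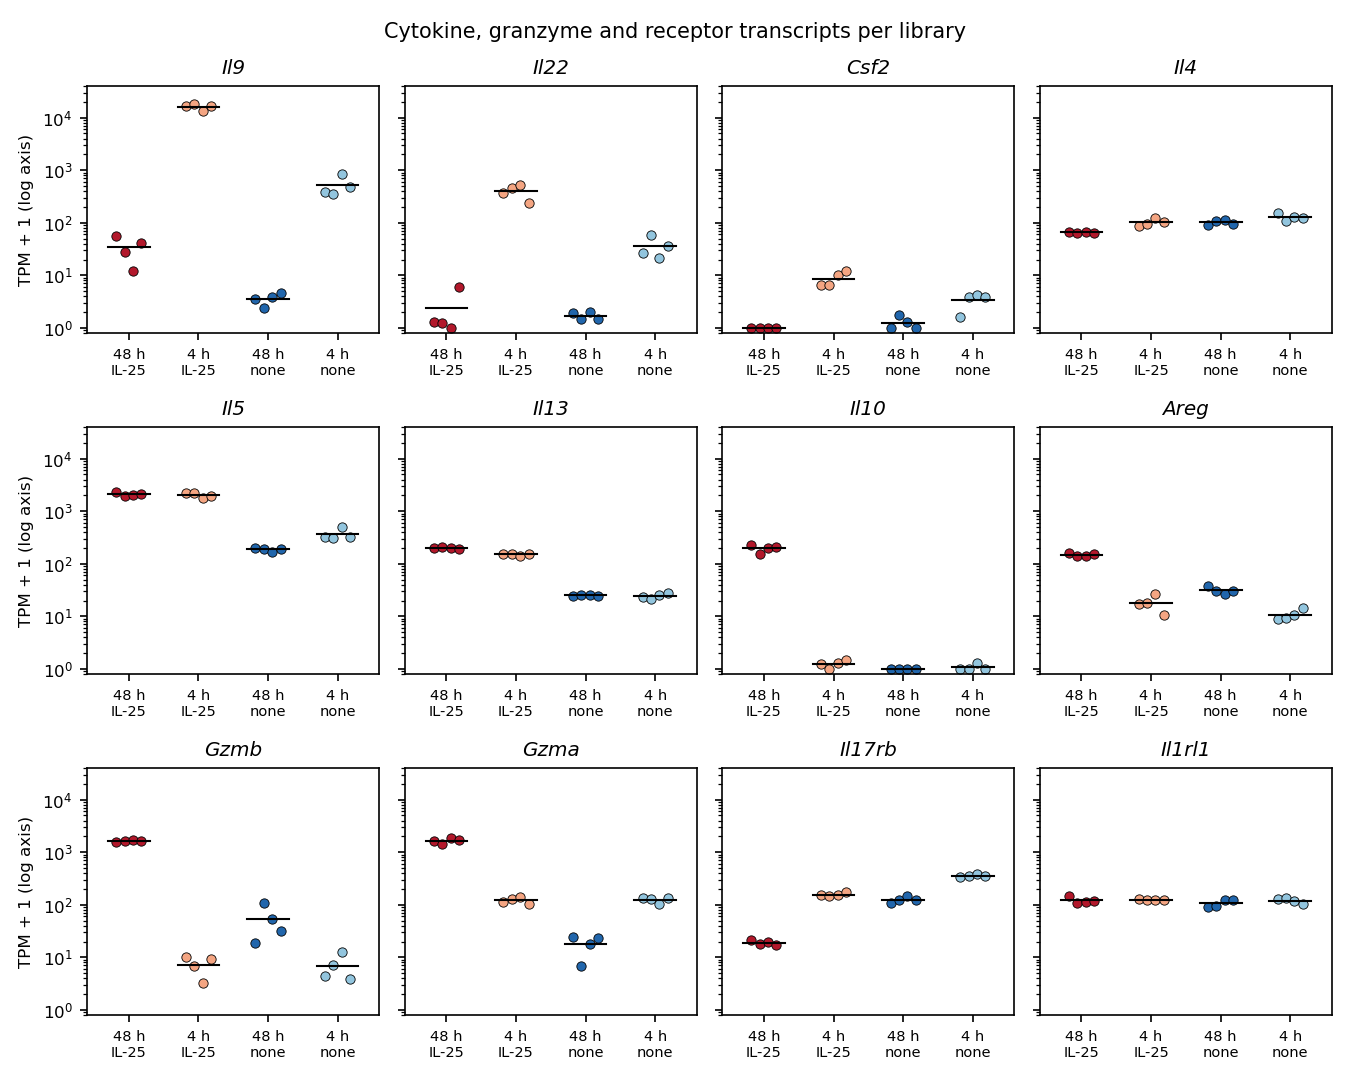
TPM + 1 (log axis, the same in every panel) of 12 genes in each library of 4 groups, 48 h and 4 h with IL-25 (reds) and 48 h and 4 h without (blues), with a bar at the group mean of TPM. Il9 and Il22 were low at 48 h in both cultures, Il10 was high only in the 4 libraries at 48 h with IL-25 among the 16 shown, and Il5 and Il1rl1 overlapped between 48 h and 4 h with IL-25.

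Receptor transcripts were mostly lower at 48 h, including that for IL-25 itself. Of 24 cytokine receptor genes, 2 were higher and 16 lower, with a median of -1.30. Il17rb (chr14:29996168-30008896, GRCm38.p6), the chain that binds IL-25, had 19.99, 17.2, 18.4 and 16.3 TPM at 48 h and 151, 146, 150 and 173 TPM at 4 h (8.62-fold lower; -3.04 ± 0.09, adjusted p = 2.05e-19). Il17ra, its partner, averaged 8.78 ± 1.49 TPM at 48 h and 34.6 ± 3.88 TPM at 4 h (SD, n = 4 each). The IL-7 receptor gene Il7r had 24.2, 17.6, 12.6 and 17.1 TPM at 48 h and 80.2, 78.7, 106 and 72.3 TPM at 4 h. Il2ra, the high-affinity IL-2 receptor chain, had 203 to 267 TPM at 48 h and 561 to 610 TPM at 4 h (2.49-fold lower). Il10ra was 11.7-fold lower and Il18rap 9.69-fold lower. Il1rl1, the IL-33 receptor, did not pass the test, with 144, 106, 113 and 118 TPM at 48 h and 127, 122, 124 and 124 TPM at 4 h (-0.06 ± 0.11, adjusted p = 0.651). The 2 genes that rose were Il9r, with 18.8 to 23.9 TPM at 48 h and 6.42 to 7.92 TPM at 4 h, and Ifngr1, with 102 to 109 and 70.0 to 83.0 TPM.

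Transcripts of the signalling chain below these receptors fell with them. Of 23 JAK, STAT and SOCS genes 1 was higher and 17 lower, with a median of -0.85. Stat5a, which carries IL-2 and IL-7 signals, had 17.9, 14.5, 15.1 and 10.5 TPM at 48 h and 192, 171, 163 and 163 TPM at 4 h (11.9-fold lower), and Jak1 18.8 to 25.4 TPM at 48 h and 143 to 157 TPM at 4 h. The exception was Socs3, a feedback inhibitor of cytokine receptors, with 69.4 to 89.1 TPM at 48 h and 15.4 to 22.9 TPM at 4 h (2.05 ± 0.15, adjusted p = 9.34e-12).

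The NF-kB list had the lowest median of the pathway lists. Of 27 subunits, inhibitors and known targets, 1 was higher and 25 lower at 48 h, with a median of -1.90. Cd83, a surface marker of activation, had 0, 0.12, 0 and 0 TPM at 48 h and 86.0, 78.2, 71.4 and 79.8 TPM at 4 h (-6.27 ± 0.22, adjusted p = 3.44e-18). Ltb, the gene of lymphotoxin beta, had 7.17, 4.33, 7.54 and 5.26 TPM at 48 h and 329, 315, 281 and 356 TPM at 4 h (52.7-fold lower). Feedback inhibitors were among the lower genes: Tnfaip3, which encodes A20, averaged 2.29 ± 1.05 TPM at 48 h and 62.6 ± 10.2 TPM at 4 h, and Zc3h12a, which encodes regnase-1, 2.47 ± 0.675 and 46.8 ± 3.92 TPM (SD, n = 4 each). The subunit gene Nfkb2 had 10.8 to 16.8 TPM at 48 h and 151 to 173 TPM at 4 h, and Rela, the main transactivating subunit, 25.5 to 29.3 and 25.2 to 35.7 TPM (-0.06 ± 0.11, adjusted p = 0.653; called higher after median of ratios scaling, 0.22). Bcl3, an atypical member of the inhibitor family, was the 1 that rose (34.1 to 39.8 TPM at 48 h and 17.6 to 26.5 TPM at 4 h).

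NF-kB letters (GGGACTTTC or GGGAATTTC, either strand) were in the windows of 3 of the 22 pathway genes that had one (13.6%), against 0.754% of tested genes. They were Ltb, Nfkb2 and Nfkbia. All 3 fell, as did 25 of the 27 genes of the list, so the fall does not set them apart. The window of Ltb is shown with its match, on the opposite strand, in capitals:
Ltb (chr17:35194257-35194556, plus strand): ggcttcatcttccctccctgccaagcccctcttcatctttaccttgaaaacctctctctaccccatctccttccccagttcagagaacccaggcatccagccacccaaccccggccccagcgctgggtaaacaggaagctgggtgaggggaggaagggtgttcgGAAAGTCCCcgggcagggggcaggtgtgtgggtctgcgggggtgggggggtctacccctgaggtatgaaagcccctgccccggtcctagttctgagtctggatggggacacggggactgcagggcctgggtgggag

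Immediate early genes were mixed. Of 25, 3 were higher and 15 lower, a median of -0.90. Nr4a1, an orphan nuclear receptor induced within minutes of receptor signals, had 5.86, 2.93, 4.63 and 4.78 TPM at 48 h and 189, 157, 147 and 186 TPM at 4 h (37.3-fold lower). Atf3 had 0 to 0.12 TPM at 48 h and 9.36 to 12.7 TPM at 4 h, and Jun 1.02 to 2.48 and 17.1 to 25.9 TPM. Fos, the classic early gene, did not pass the test (adjusted p = 0.264) and was low in both groups (4.54 to 6.41 TPM at 48 h and 4.85 to 8.51 TPM at 4 h). The MAP kinase phosphatase gene Dusp6 rose, with 31.5 to 42.1 TPM at 48 h and 7.26 to 8.79 TPM at 4 h (4.60-fold).

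Lineage transcription factors were lower in part. Of 16, 1 was higher and 10 lower, with a median of -0.62, and 3 and 8 after median of ratios scaling. Gata3, the factor required for ILC2 identity, had 304, 279, 301 and 295 TPM at 48 h and 498, 511, 613 and 601 TPM at 4 h (1.88-fold lower, adjusted p = 8.41e-11). Rora, which is needed for ILC2 development, had 45.9, 32.0, 33.7 and 34.6 TPM at 48 h and 329, 327, 446 and 388 TPM at 4 h (10.2-fold lower, adjusted p = 2.98e-18). Tcf7, a progenitor factor, had 0 to 0.22 TPM at 48 h and 6.21 to 11.8 TPM at 4 h. Bcl11b, Ets1, Gfi1 and Tox did not pass the test, but after median of ratios scaling Tox (0.41) and Ets1 (0.23) were called higher, as Tox was after quantile normalization (0.40). Nfil3, a factor of ILC precursors, was the 1 that rose, with 68.8 to 78.5 TPM at 48 h and 8.61 to 13.6 TPM at 4 h (6.97-fold).

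Effector transcription factors changed in both directions. Of 22, 6 were higher, near the 27.6% of all genes tested, and 13 lower, against 44.5%. Their median was -0.56, and after median of ratios scaling 7 were higher and 10 lower, so no direction is given for the list. Zbtb32, a repressor first studied in T and B cells, had 52.3, 44.6, 53.9 and 56.7 TPM at 48 h and 1.82, 1.39, 1.35 and 1.69 TPM at 4 h (33.2-fold, adjusted p = 3.66e-18). Pparg, a lipid-sensing nuclear receptor of ILC2s, rose to 52.3 to 75.3 TPM at 48 h, against 9.50 to 10.8 TPM at 4 h. Prdm1 and Maf averaged 21.9 ± 5.98 and 41.1 ± 2.69 TPM at 48 h, and 3.15 ± 1.43 and 11.9 ± 1.59 TPM at 4 h (SD, n = 4 each). Lower at 48 h were Ahr, the aryl hydrocarbon receptor, with 1.17 to 2.77 TPM against 36.3 to 47.2 TPM at 4 h, Bhlhe40, with 2.54 to 8.70 TPM against 66.2 to 84.6 TPM, and Irf4, with 20.3 to 23.7 TPM against 213 to 251 TPM. Rxrg, the nuclear receptor of the series, was low in both groups and lower at 48 h, with 2.79, 2.85, 4.13 and 4.82 TPM against 9.56, 11.5, 5.45 and 8.01 TPM at 4 h (-1.03 ± 0.20, adjusted p = 8.12e-05).

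The granzyme genes Gzmb and Gzma rose, while Gzmc and several other granule and cytotoxicity genes did not. Gzmb had 1573, 1646, 1692 and 1653 TPM at 48 h and 8.98, 5.93, 2.22 and 8.11 TPM at 4 h (260-fold; 7.93 ± 0.40, adjusted p = 6.56e-15). Gzma had 1640, 1427, 1825 and 1695 TPM at 48 h and 114, 129, 138 and 101 TPM at 4 h (13.7-fold). Per transcript length both granzymes were then near the level of Il5. Prf1, the gene of perforin, which opens target membranes to granzymes, stayed much lower, with 10.9 to 12.1 TPM at 48 h and 2.43 to 4.26 TPM at 4 h. Of the 15 granule genes 9 were higher and 5 lower. Among the lower were Serpinb9, which encodes an inhibitor of granzyme B, with 1.05 to 2.32 TPM at 48 h and 24.1 to 31.0 TPM at 4 h (17.0-fold lower), and Nkg7, with 13.7 to 18.9 and 30.8 to 44.6 TPM. NK cell and ILC1 markers, which could mark other granzyme-bearing cells, summed to 2.19 to 8.69 TPM at 48 h and 1.72 to 2.61 TPM at 4 h, with Eomes and Klrb1c not among the listed genes.

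Surface receptors that restrain or aid lymphocytes were split, 10 of 22 higher and 8 lower. Ctla4, an inhibitory receptor, had 87.7, 69.3, 68.1 and 69.6 TPM at 48 h and 0, 0, 0 and 0.67 TPM at 4 h (6.03 ± 0.23, adjusted p = 1.31e-17). Tnfrsf8, which encodes CD30, averaged 187 ± 19.7 TPM at 48 h and 4.72 ± 0.553 TPM at 4 h, and Lag3 13.9 ± 0.962 and 0.0750 ± 0.0881 TPM (SD, n = 4 each). Tigit had 141 to 150 TPM at 48 h and 41.9 to 52.8 TPM at 4 h. Klrg1, the receptor used to mark inflammatory ILC2s, had 824, 782, 821 and 833 TPM at 48 h and 343, 329, 354 and 335 TPM at 4 h (2.39-fold, adjusted p = 2.47e-17). The costimulatory receptor gene Tnfrsf25, which encodes DR3, fell to 23.7 to 33.3 TPM at 48 h, against 308 to 351 TPM at 4 h. Pdcd1, which encodes PD-1, did not pass the test (15.95 to 26.3 TPM at 48 h and 21.9 to 29.5 TPM at 4 h).

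Genes that place lymphocytes in tissue turned over in both directions, 10 of 23 higher and 10 lower. Ccr1 had 70.5, 58.8, 61.1 and 57.7 TPM at 48 h and 0.63, 0.36, 0.34 and 0.69 TPM at 4 h (123-fold). S1pr1, the receptor for exit into lymph and blood, had 27.6, 21.98, 24.4 and 19.8 TPM at 48 h and 0.33, 0, 1.16 and 0.09 TPM at 4 h (4.19 ± 0.26, adjusted p = 4.22e-13). The integrin genes Itga4 and Itgb7, whose products pair in gut homing, averaged 86.9 ± 12.0 and 265 ± 35.9 TPM at 48 h, and 12.1 ± 1.78 and 103 ± 25.3 TPM at 4 h (SD, n = 4 each). Ccr4 fell to 56.4 to 76.9 TPM at 48 h, against 769 to 878 TPM at 4 h (12.6-fold lower), and Gpr183, a receptor for oxysterols, to 10.4 to 15.1 TPM, against 106 to 126 TPM. The gut-homing receptor gene Ccr9 did not pass the test (9.89 to 14.7 TPM at 48 h and 11.2 to 13.9 TPM at 4 h).

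Receptors for neuropeptides and transmitters followed 2 patterns, 2 of 9 higher and 7 lower. Nmur1, the neuromedin U receptor, had 211, 189, 221 and 202 TPM at 48 h and 63.0, 57.6, 98.5 and 72.5 TPM at 4 h (2.82-fold). Ramp3, a relative of the CGRP coreceptor gene Ramp1, had 0.48 to 1.95 TPM at 48 h and 52.4 to 59.6 TPM at 4 h. Ramp1 and its partner Calcrl were also called lower at 48 h. Ramp2, which with Calcrl makes an adrenomedullin receptor, had 4.39 to 13.1 TPM at 48 h and was listed at 0 in all 4 libraries at 4 h. Vipr2 was 11.8-fold lower at 48 h, with 0.38 to 1.24 TPM against 9.10 to 13.5 TPM at 4 h.

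Growth and biosynthesis genes of the early phase were lower at 48 h while genes of division were higher. Myc had 88.4, 91.6, 101 and 96.9 TPM at 48 h and 600, 590, 570 and 639 TPM at 4 h (6.35-fold lower; -2.65 ± 0.08, adjusted p = 5.13e-19). Of 44 genes of Myc and ribosome biogenesis 42 were lower, with a median of -1.26. Mxd4 and Mxi1, which encode Myc antagonists, were the 2 that did not pass; Mxd4 was called higher after median of ratios scaling (0.355). Polr1b, a subunit of RNA polymerase I, had 10.6 to 18.4 TPM at 48 h and 97.7 to 116 TPM at 4 h, and Ncl, which encodes nucleolin, 471 to 503 and 1179 to 1378 TPM. Of 20 aminoacyl-tRNA synthetases 19 were lower, with a median of -0.82. Serine, amino acid and one-carbon genes were lower in 24 of 36 and higher in 6. The E-box (CACGTG) bound by Myc was in the windows of 10 of 38 ribosome biogenesis genes that had one (26.3%), against 12.2% of tested genes. Transcripts of the ribosomal proteins themselves were 21 of 77 higher and 22 lower, with a median of -0.02; after median of ratios rescaling 44 were higher and none lower, and after quantile normalization 17 and 30, so no direction is given for them.

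Glycolysis genes were higher in 15 of 26 and lower in 4, with a median of 0.45. Ldha, lactate dehydrogenase, had 5194, 4598, 5043 and 5033 TPM at 48 h and 2367, 2185, 2228 and 2298 TPM at 4 h (2.19-fold), and was among the 8 genes that gained the most TPM, with Gapdh, Actg1, Tmsb4x and Lgals1. Pkm averaged 2390 ± 103 TPM at 48 h and 881 ± 59.2 TPM at 4 h, and the lactate exporter gene Slc16a3 95.7 ± 5.38 and 22.9 ± 3.96 TPM (SD, n = 4 each). Hk2, the inducible hexokinase, went the other way, with 6.34 to 9.31 TPM at 48 h and 40.1 to 46.2 TPM at 4 h. Nuclear genes of oxidative phosphorylation were higher in 60 of 77 and lower in 4, with a median of 0.37, and genes of the tricarboxylic acid cycle in 14 and 7 of 29 (22 and 6 after median of ratios scaling).

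Lipid genes changed in both directions, also within single lists. Cholesterol synthesis and uptake genes were lower in 15 of 26 and higher in 4 (14 and 7 after median of ratios scaling), a median of -0.75: Hmgcs1, an early enzyme of the pathway, had 18.96 to 34.6 TPM at 48 h and 159 to 176 TPM at 4 h. Of 10 LXR targets and efflux genes 5 were higher and 4 lower (6 and 3 after median of ratios scaling), among them Abcg1, a sterol exporter, with 11.3 to 15.1 TPM at 48 h and 1.90 to 2.52 TPM at 4 h, and Apoe, with 1.84 to 4.87 and 19.8 to 29.6 TPM. Dgat2, which makes triglyceride for storage, was 50.1-fold lower, with 10.4, 6.12, 9.53 and 6.83 TPM at 48 h and 435, 400, 367 and 446 TPM at 4 h. Acaa2 and Hadh of fatty acid oxidation were 3.89-fold and 3.72-fold higher. In the list of retinoid and partner receptors, 4 of 16 were higher and 10 lower. Aldh1a2, which makes retinoic acid, had 0 to 0.38 TPM at 48 h and 18.3 to 23.5 TPM at 4 h. Dhrs3, which turns retinal back to retinol, had 20.8 to 28.1 TPM at 48 h and 1.07 to 1.96 TPM at 4 h. Rdh10, which works in the direction opposite to Dhrs3, was called lower, like Aldh1a2.

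Structural transcripts rose broadly. Of 28 cytoskeleton, S100, galectin and annexin genes 23 were higher and 1 lower, with a median of 1.29. That 1 was Lgals9, whose change turned to 0.14 under median of ratios scaling and lost its call without the first or the second 4 h library or the second or the fourth 48 h library. Lgals1, the gene of galectin-1, had 2269, 2622, 2455 and 2409 TPM at 48 h and 9.74, 8.88, 10.04 and 6.34 TPM at 4 h (279-fold; 7.98 ± 0.12, adjusted p = 4.53e-25). S100a6 had 1116, 991, 1064 and 1267 TPM at 48 h and 4.40, 10.6, 10.3 and 1.11 TPM at 4 h (169-fold). Stmn1, the microtubule regulator stathmin, averaged 424 ± 19.8 TPM at 48 h and 4.27 ± 2.49 TPM at 4 h (SD, n = 4 each). Antigen processing and MHC genes were lower in 16 of 25 and higher in 6. Cd74, the invariant chain, had 0.73 to 2.09 TPM at 48 h and 96.5 to 136 TPM at 4 h (103-fold lower), while the macrophage and dendritic cell markers summed to 11.5 to 18.2 TPM at 48 h and 14.5 to 18.5 TPM at 4 h; their part was not tested. The class I gene H2-K1 had 1271 to 1627 and 3517 to 4077 TPM.

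The course without IL-25 was partly shared. Without IL-25, 2094 genes (19.9%) were higher and 4699 (44.5%) lower at 48 h than at 4 h, and 3277 and 3060 after median of ratios scaling or 2829 and 3606 after quantile normalization. In the higher direction 1660 genes were called in both cultures, 56.9% of those with IL-25 and 79.3% of those without. In the lower direction 3705 were shared, 78.8% of each. The difference between the 2 changes, with IL-25 minus without, was itself tested. It was called for 2938 genes, positive for 1812 (17.2%) and negative for 1126 (10.7%). With median of ratios scaling the split was 1688 and 1430, and with quantile normalization 1559 and 1405. A positive difference is called greater with IL-25 below and a negative one lower. These words give the sign and not the size of the change. A gene that fell less with IL-25 has a positive difference, and a gene that fell more, such as Il9 (-1.98), a negative one. Of 1029 genes called higher with IL-25 and not called without, the difference was called for 570, and of 878 called lower only with IL-25, for 287.

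Division genes rose in both cultures. The 49 mitosis genes were all higher without IL-25 too, with a median of 4.32, and the difference was called for 13 of them, 8 greater and 5 lower with IL-25. All 40 replication genes were higher without IL-25, with a median of 2.08, and the difference was called in the greater direction for 14 and in the lower for 2. Cdk1 averaged 335 ± 23.7 and 1.63 ± 1.82 TPM at 48 h and 4 h with IL-25, and 277 ± 63.9 and 3.26 ± 1.94 TPM without (difference 1.16 ± 0.47, adjusted p = 0.0684). Calca and Myc fell in both cultures, and their differences did not pass the test either. Calca averaged 10.2 ± 2.53 and 2288 ± 97.02 TPM with IL-25 and 13.7 ± 3.04 and 2785 ± 86.4 TPM without (difference -0.11 ± 0.27, adjusted p = 0.813), and Myc 94.5 ± 5.52 and 600 ± 28.9 TPM with IL-25 and 49.96 ± 6.40 and 274 ± 5.33 TPM without (difference -0.21 ± 0.12, adjusted p = 0.195; SD, n = 4 each).

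Late secreted factors, granzymes and receptors showed the greatest differences. The 10 genes with the greatest positive difference were Tg, Il10, Gzma, Tnfrsf8, Ctla4, Ccr1, Gzmb, Nmb, Zbtb32 and Tigit, from 7.75 to 4.89 on the log2(TPM + 1) scale. Il10 was listed at 0 in all 4 libraries at 48 h without IL-25. Gzmb rose in both cultures, to 1641 ± 49.6 TPM at 48 h with IL-25 and to 51.9 ± 38.7 TPM without, against 6.31 ± 3.01 and 5.98 ± 3.95 TPM at 4 h (difference 5.14 ± 0.57, adjusted p = 1.24e-07). Gzma and Tigit fell without IL-25: Gzma averaged 17.3 ± 8.28 TPM at 48 h and 125 ± 16.2 TPM at 4 h there, and Tigit 0.945 ± 0.330 and 18.01 ± 3.14 TPM (SD, n = 4 each). Tnfrsf8, Ccr1 and Zbtb32 were also called lower without IL-25 but were low there at both times. Their means were 0.89, 0.16 and 0.20 TPM at 48 h and 2.68, 0.51 and 0.74 TPM at 4 h. In all, 226 genes were called higher with IL-25 and lower without.

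Interferon response genes were among those whose change was lower with IL-25. The 10 genes with the lowest difference were Ccdc184, Ltb, Tgtp1, Serpina3g, Plscr1, Plxdc2, Il22, Rtp4, Fbxl21 and Tnfsf14, from -4.84 to -3.40, and 116 genes were called lower with IL-25 and higher without. Of 36 interferon response genes, 2 were higher and 25 lower with IL-25, whereas 14 were higher and 5 lower without, and the difference was called for 20, in the direction of lower with IL-25. Plscr1, an interferon-induced scramblase, averaged 16.7 ± 2.32 and 206 ± 27.99 TPM with IL-25, and 347 ± 34.7 and 263 ± 25.1 TPM without (SD, n = 4 each). Tgtp1 and Serpina3g have near-identical copies, and their values are uncertain. Of 27 NF-kB genes the difference was called lower for 20, and Ltb averaged 6.08 ± 1.53 TPM at 48 h with IL-25, against 227 ± 15.1 TPM without it. Rxrg had 44.6 to 63.3 TPM at 48 h and 28.4 to 37.6 TPM at 4 h without IL-25, above every library with IL-25, and rose there (difference -1.71 ± 0.29, adjusted p = 5.78e-05).

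Metabolic and secretory genes also took different courses. Glycolysis genes without IL-25 were 4 of 26 higher and 13 lower, and the difference was called greater with IL-25 for 20 and lower for 1. Tricarboxylic acid cycle genes were 1 of 29 higher and 17 lower without IL-25, with the difference called greater for 17. Of 37 genes of the unfolded protein response and ER chaperones, 8 were higher and 18 lower with IL-25 and 2 and 30 without, and the difference was called greater for 21. The list's median with IL-25, -0.19, turned to 0.09 under median of ratios scaling, with 16 higher and 13 lower. Hspa5, the main ER chaperone BiP, averaged 670 ± 10.4 and 1438 ± 58.3 TPM at 48 h and 4 h with IL-25, and 375 ± 24.8 and 1043 ± 74.9 TPM without (SD, n = 4 each). It was thus lower at 48 h in both cultures, by less with IL-25 (difference 0.37 ± 0.08, adjusted p = 4.66e-04).

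**Figure D3:**
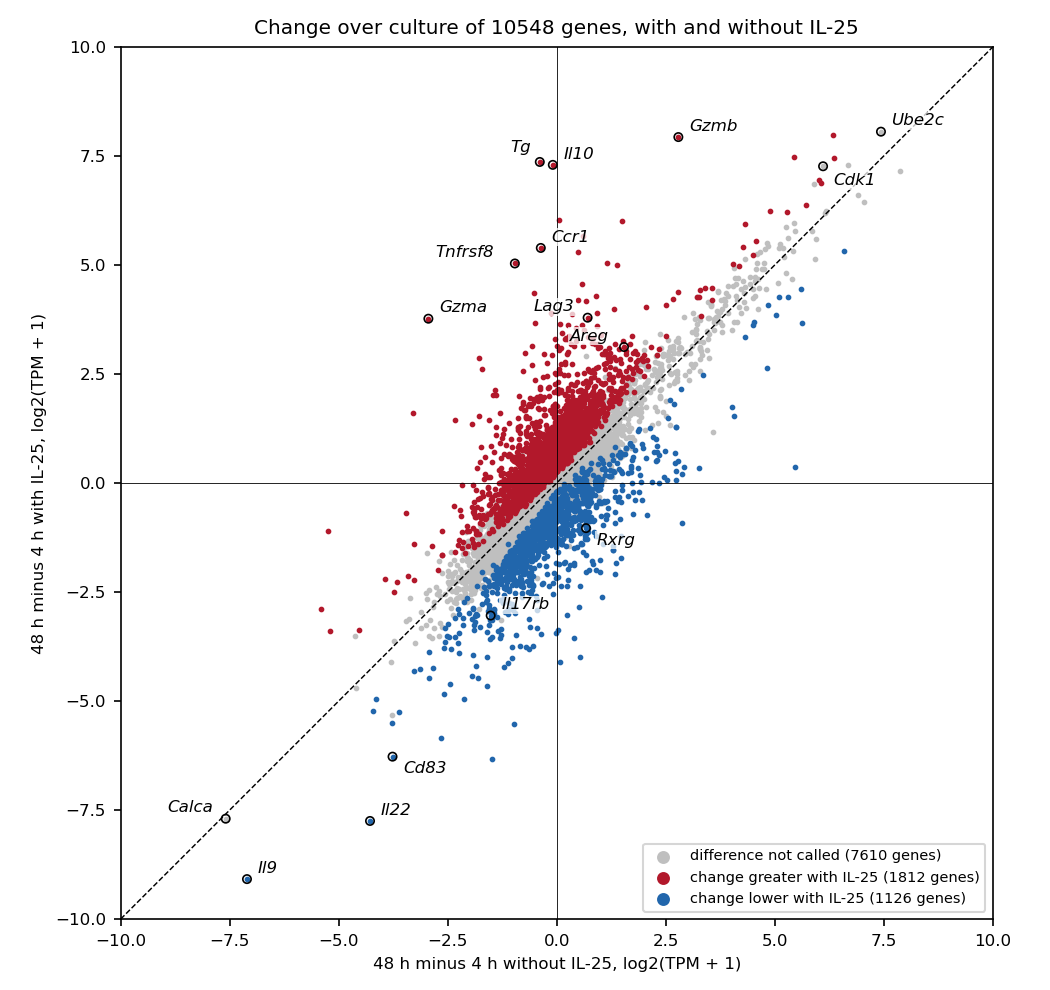
Change from 4 h to 48 h of each of 10548 genes with IL-25 (y axis) and without (x axis), both as log2(TPM + 1), coloured by the test of the difference. The 1812 genes whose signed change was greater with IL-25 lie above the dashed line of equal change, also where they fell in both cultures. Il10 and Tg lie near 7 on the y axis and near 0 on the x axis, and Ube2c, Cdk1 and Calca lie near the line.

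**Figure D4:**
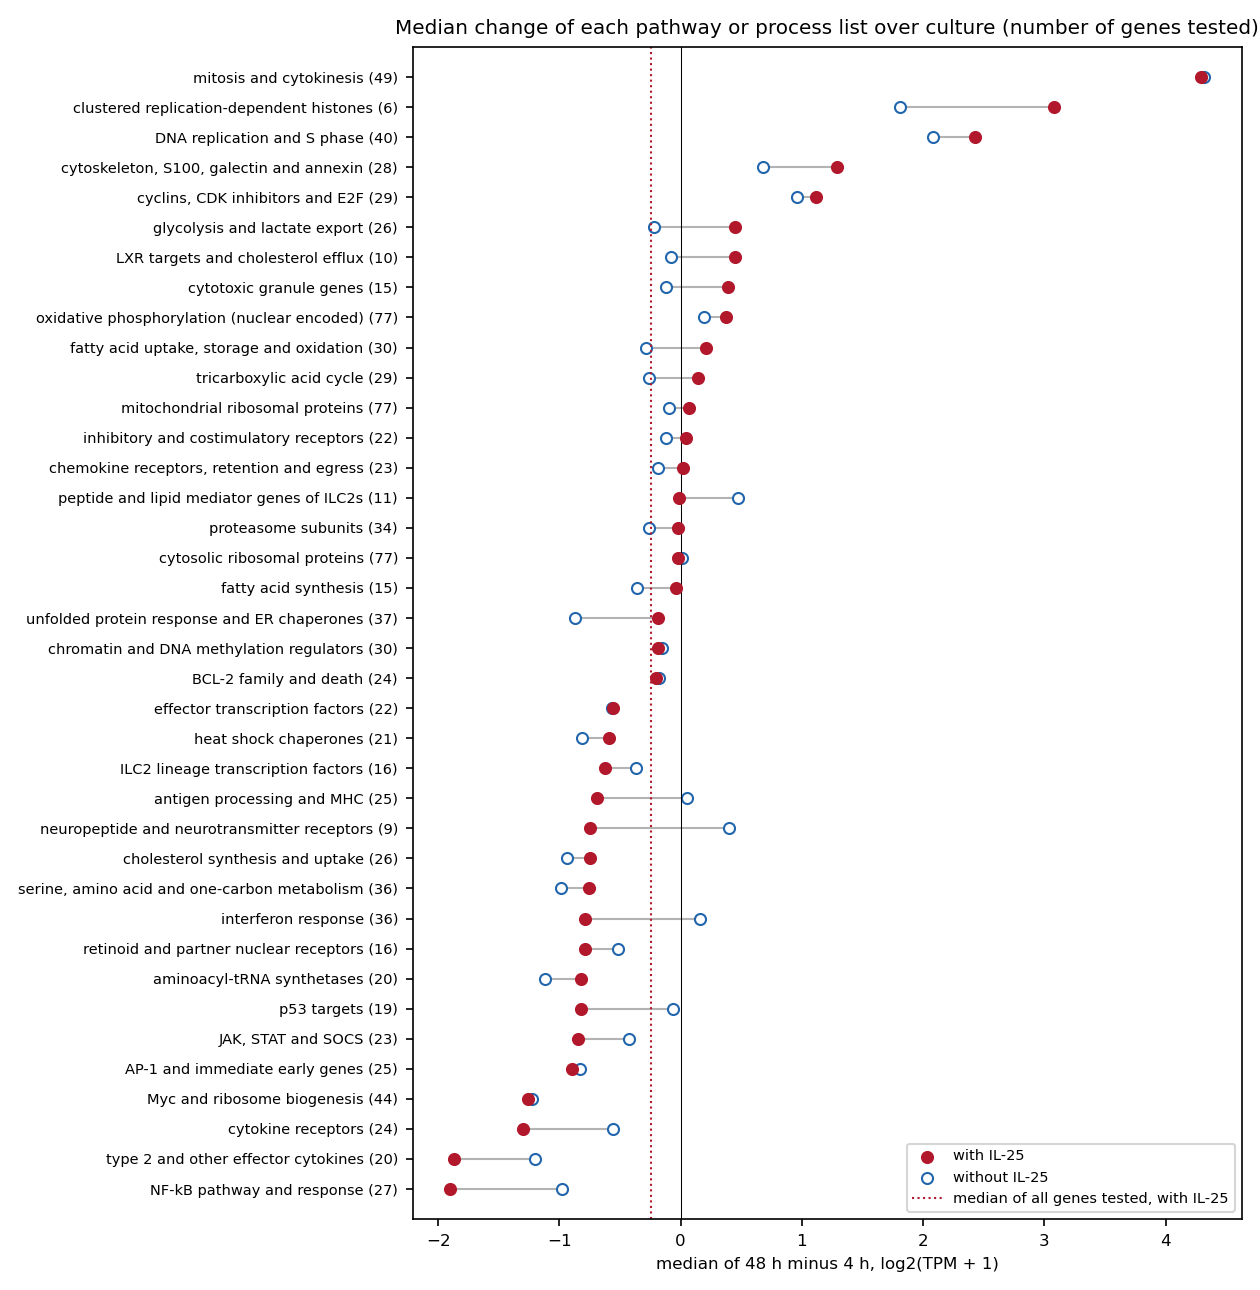
Median change from 4 h to 48 h of each pathway or process list with IL-25 (filled) and without (open), on the log2(TPM + 1) scale, with the number of genes tested; marker lists of other cells are not drawn. Among these lists mitosis (4.29 and 4.32) stood highest in both cultures, NF-kB (-1.90 and -0.98) lowest with IL-25, and the interferon list lay on opposite sides of 0 (-0.79 and 0.16).

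Levels at 72 h with IL-25 are given as values, without a test. Cdk1 averaged 281 ± 43.2 TPM, Il10 138 ± 14.4 TPM and Il17rb 12.1 ± 1.32 TPM at 72 h. Gzmb stood at 11099.6 ± 857 TPM, Gzma at 4402 ± 574 TPM and Areg at 378 ± 45.2 TPM, all above every 48 h library. Tnfrsf9, which encodes the costimulatory receptor 4-1BB and was lower at 48 h than at 4 h (131 ± 21.5 and 279 ± 1.65 TPM), stood at 1093 ± 56.0 TPM at 72 h (SD, n = 4 each). Ccr7 had 88.5 to 126 TPM at 48 h and 5.99 to 15.3 TPM at 4 h, and averaged 22.4 ± 6.95 TPM at 72 h, so its 48 h libraries exceeded those of both other times.

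**Figure D5:**
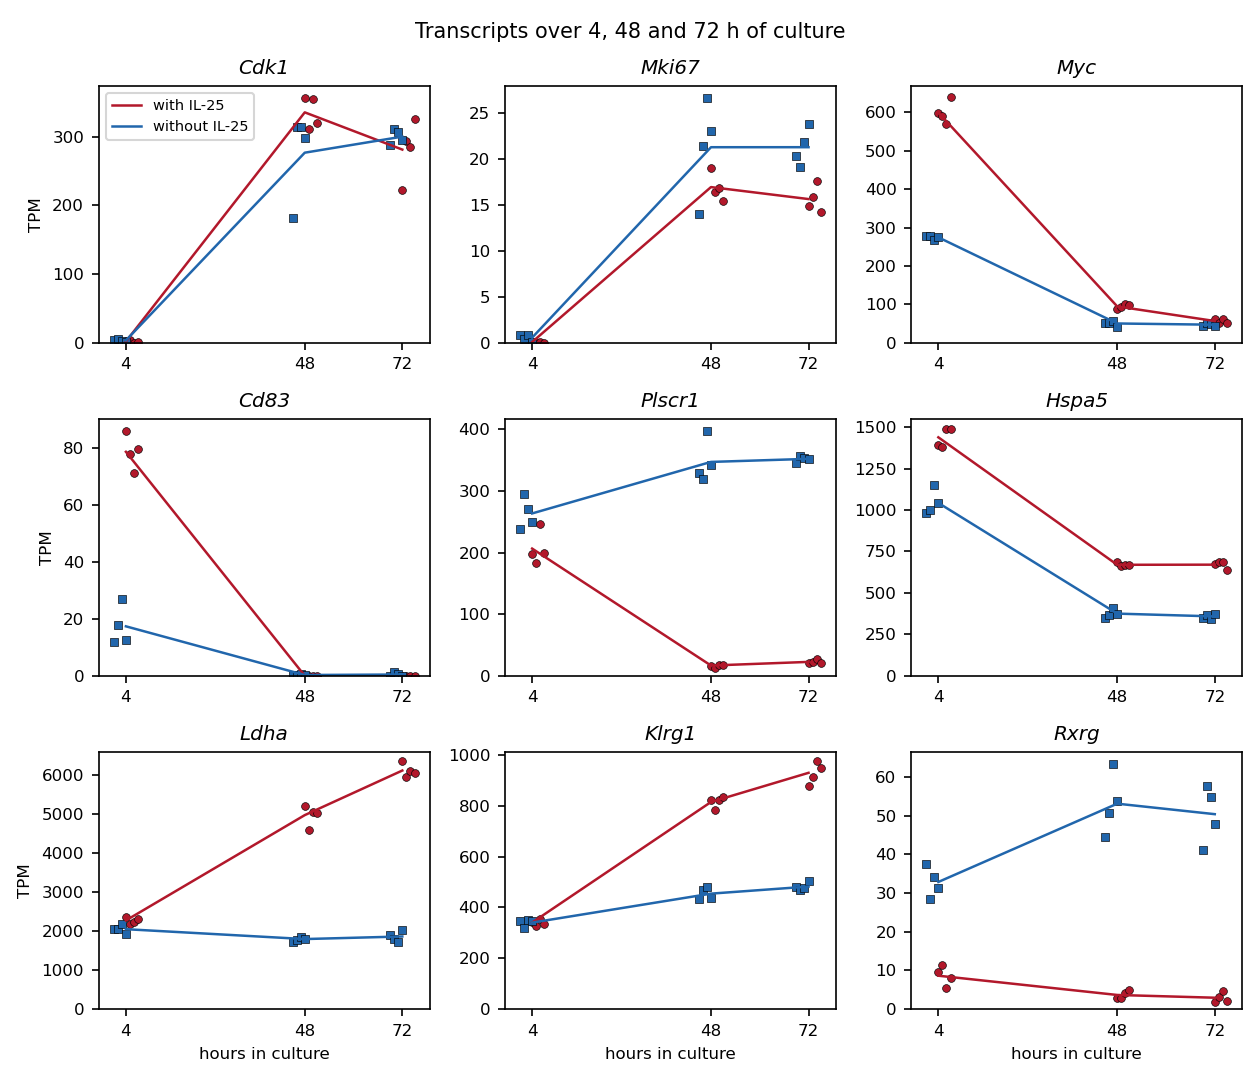
TPM of 9 genes at 4, 48 and 72 h with IL-25 (red circles) and without (blue squares), 4 libraries per point in time, with lines through the group means. Cdk1 and Myc changed between 4 h and 48 h in both cultures, whereas Ldha and Klrg1 were higher with IL-25 at 48 h and 72 h, and Plscr1 and Rxrg were higher without.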

How the data were processed

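Full-length Smart-seq2 RNA libraries of cultured small-intestinal ILC2s were used, 24 in all (6 groups of 4 by culture time and IL-25), from a series of 54 samples. The authors deposited TPM (transcripts scaled to a fixed total within each library) for 10799 genes. The submitters' processing notes name cutadapt 2.10, STAR 2.7.5c, RSEM 1.3.3 and the mouse build mm10 without giving an order, and how the listed genes were selected is not given in the sources used here. TPM keep no read total, so the depth is unknown and neither counting intervals nor detection floors were computed; TPM are also relative, so a rise of abundant transcripts lowers the others.

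A minimum of 1 TPM in 4 or more of the 24 libraries left 10548 genes, which were tested with limma 3.58.1 in R 4.3.3 on log2(TPM + 1), a pseudocount of 1 TPM, with 1 mean per group, all 24 libraries in the fit and a variance trend (eBayes). P-values were adjusted by the Benjamini-Hochberg method over the 10548 genes, with 0.05 as the threshold of a call. The contrasts were 48 h minus 4 h with IL-25, the same without IL-25, and the difference between them. Alternatives were a pseudocount of 0.1 TPM, no filter or a filter of 5 TPM, scaling by the median of ratios or by quantiles, the compared groups alone, library weights, the replicate number as a block, and leaving out each library.

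Genes named are the 15 largest rises and 15 largest falls among called genes with at least 10 TPM and no overlap, 20 genes of ILC2 biology, up to 6 called members per direction of each gene list, the 10 highest and 10 lowest differences, the 8 largest opposite changes, and the genes highest in TPM or in TPM gained or lost. The members and lists were chosen with earlier results of these data known. Bub3, Pola1, Ncl, Il17ra, Nfkbia, Cd3e, Cd3g, Epcam and Krt18 were named after their values were seen. Promoter windows come from the RefSeq table of GRCm38.p6 and were searched on both strands with Python 3.11.15.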

Additional observations from a re-analysis of the deposited data

Results flagged for a closer look

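Of 246 sets of 4 libraries of a named gene with at least 10 TPM in some library, 13 had 1 library apart from the other 3 by more than Dixon's critical ratio for 4 values, and chance flags about 1 in 20. At 48 h with IL-25 the first library stood high for Ctla4 (87.74 TPM), Il17ra (10.98 TPM) and Itga4 (104.75 TPM), the second stood low for Pdcd1 (15.95 TPM) and Rela (25.51 TPM), the third stood high for Tnfrsf9 (163.15 TPM) and the fourth stood low for Pclaf (191.22 TPM). At 4 h with IL-25 the first library stood high for Itga4 (14.77 TPM) and Hspa1a (211.73 TPM), the second low for Tcf7 (6.21 TPM), the third high for Ccnd2 (925.91 TPM), and the fourth high for Il17rb (172.91 TPM) and low for Itgb7 (65.4 TPM). Hspa1a has a near-identical copy, and its other 4 h libraries had 16.9 to 40.5 TPM. Without its first 4 h library its change was -4.60 in place of -5.32, still a call.

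The change over culture with IL-25 differed from that without for 2938 genes by limma's test of the difference. On the log2(TPM + 1) scale the difference was 7.75 for Tg, 7.39 for Il10, 6.71 for Gzma, 5.99 for Tnfrsf8, 5.97 for Ctla4, 5.76 for Ccr1, 5.14 for Gzmb, 5.08 for Nmb, and 4.89 for both Zbtb32 and Tigit. It was -4.84 for Ccdc184, -4.54 for Ltb, -4.53 for Tgtp1, -4.19 for Serpina3g, -3.94 for Plscr1, -3.65 for Plxdc2, -3.47 for Il22, -3.43 for both Rtp4 and Fbxl21, and -3.40 for Tnfsf14.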

How the results depend on the processing

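With IL-25, leaving out each library in turn gave 2758 to 2854 genes higher and 4483 to 4696 lower, and the other alternatives stayed within 1.5 times of 2915 and 4699. Without IL-25, median of ratios scaling gave 3277 genes higher and 3060 lower, in place of 2094 and 4699. The difference between the courses was called for 2700 to 2839 genes without 1 library and for 2702 to 3118 under the other alternatives. Of 168 named genes, 156 kept their direction and their side of the threshold under every alternative that gave them a value (the filter of 5 TPM removed 4 of the 168). Reversed signs were Rpl13 (0.101) and Lgals9 (0.136) under median of ratios and Hsp90aa1 (-0.005) under quantile normalization. Cd3g, not called (adjusted p = 0.0566 by limma), was called higher under median of ratios, quantile normalization, library weights, the replicate block and without the second or the third 4 h library (0.337 to 0.607). Under median of ratios, 2 of 27 NF-kB genes, 2 of 23 JAK, STAT and SOCS genes, 1 of 44 Myc and ribosome genes and 5 of 36 interferon genes were higher, in place of 1, 1, 0 and 2. The cause was not tested.

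Same-numbered libraries at 48 h and 4 h with IL-25 correlated at 0.00658 to 0.0257 in their deviations from the group means, so the numbers were not taken to pair them, and not every library correlated best with its own number. With the replicate number as a block, 2919 genes were higher and 4708 lower, and the difference was called for 1810 in the greater direction and 1125 in the lower. TPM hold no depth, so the precision of low values cannot be given.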

Other observations

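Survival and death genes were split much as all genes tested were (27.6% higher and 44.5% lower). Of 24 BCL-2 family and death genes 7 were higher and 11 lower at 48 h with IL-25, and 10 and 9 after median of ratios scaling. Bad, a pro-death member, had 29.1 to 36.8 TPM at 48 h and 6.00 to 18.3 TPM at 4 h. The pro-death genes Bcl2l11, with 0.95 to 3.45 TPM at 48 h and 29.5 to 35.0 TPM at 4 h, and Fas, with 1.85 to 5.07 and 31.9 to 40.7 TPM, were lower, as was the protective Bcl2, with 3.88 to 4.42 and 23.7 to 27.6 TPM. Of 19 p53 targets 3 were higher and 13 lower. Gadd45b, a stress and NF-kB target, had 46.3 to 56.8 TPM at 48 h and 223 to 285 TPM at 4 h. Of 21 heat shock genes 15 were lower and 1, Hsp90aa1, higher (its change of 0.20 turned to -0.005 under quantile normalization; after median of ratios scaling 4 were higher and 12 lower), and Hspa8, the constitutive HSC70, had 4087 to 4522 TPM at 48 h and 7211 to 7734 TPM at 4 h.

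Lipid mediator and monoamine genes were split as well, 5 of 11 higher and 5 lower. Cysltr1, the receptor for cysteinyl leukotrienes, had 256 to 315 TPM at 48 h and 120 to 134 TPM at 4 h. Tph1, the first enzyme of serotonin synthesis, had 381 to 473 TPM at 48 h and 702 to 819 TPM at 4 h, and Ptgs2, which encodes the inducible cyclooxygenase, 0.05 to 0.17 and 11.8 to 21.1 TPM. Chromatin regulators were 13 of 30 higher and 14 lower, and their median of -0.19 turned to 0.07 under median of ratios scaling. Uhrf1, a partner of maintenance DNA methylation, had 58.1 to 84.9 TPM at 48 h and 3.91 to 9.08 TPM at 4 h. The surface gene Cd72 was 33.7-fold lower at 48 h, with 8.56 to 12.97 TPM against 313 to 373 TPM at 4 h. Ccdc184, for which no role in ILC2s is given here, had 0.73 to 1.07 TPM at 48 h and 140 to 162 TPM at 4 h.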
